A study of Drosophila melanogaster with 24 samples.

Results

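A set of 127 maternally supplied mRNAs, out of 14042 genes on the array, kept a steady level in *w1118* embryos up to 3 h after egg laying and dropped sharply in the next collection. The set was defined in wild-type samples alone, on log2 levels averaged over the transcripts of a gene and then over the 3 *w1118* samples of each time point. A member had a level of at least 11 at 0-1.5 h, changed by less than 0.5 by 1.5-3 h, fell by at least 1.5 between 1.5-3 h and 3-4.5 h, and rose by less than 0.5 after that. Levels in the mutant played no part in the choice. The steady start, the drop and the low end point in *w1118* are therefore properties of the rule, and what follows is about the same 127 mRNAs in embryos from *brat* mutant females.

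At fertilization the *Drosophila* embryo runs on mRNAs and proteins loaded into the egg, and the zygotic genome is transcribed only later. The maternal mRNAs are removed in overlapping waves: machinery loaded by the mother acts from egg activation onwards, and a later activity depends on zygotic transcription. Messages that persist through the syncytial nuclear divisions and disappear around cellularization and gastrulation belong to the later wave. Brain tumor (BRAT) is a TRIM-NHL protein that binds RNA through its NHL domain and represses target mRNAs, among them maternal *hunchback*.

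Total RNA of whole embryos was measured in 24 samples, 3 biological replicates of each genotype in each of 4 collections, which ran from 0-1.5 h after egg laying through 1.5-3 h and then 3-4.5 h to 4.5-6 h. The *brat* mutant embryos were laid by *bratfs1*/*Df(2L)TE37C-7* females, which carry a female-sterile missense allele affecting the NHL domain over a deficiency. The fathers were mostly *bratfs1*/*CyO* or *Df(2L)TE37C-7*/*CyO*, so the embryos' own genotypes were mixed. The control embryos came from *w1118* flies, which are wild type for *brat*. *brat* mRNA itself was 13.19, 13.40 and 13.27 in *brat* embryos at 0-1.5 h, against 13.85, 14.24 and 13.79 in *w1118* embryos, and at each later time the replicates of the genotypes overlapped. *brat* mRNA was called lower at 0-1.5 h (limma on the 6 samples, FDR under 5%), as were 3.81% of all genes. The part of the mothers' deficiency in this level was not tested. *brat* replicates 1 and 3 and *w1118* replicate 2 carried the dye Cy3, the others Cy5, so dye and genotype overlap in part, and which samples shared an array is not given in the sources used here. Replicates of a group correlated at 0.936 to 0.966 over maternal genes, and sample medians over all rows lay between 8.70 and 8.83. All levels below are the deposited log2 values, on which a difference of 1 is a doubling. The mean over all genes and samples was 9.44, and values near 8 to 9 lie close to the lowest signals of the array, so a fall that ends there shows only its lower limit.

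On each criterion the set shades into its neighbours. *Atg7* entered at a *w1118* level of 11.008 and CG11880 missed at 10.998. *MESR6* entered with an early change of 0.499 and *Pgm* missed with 0.502. CG14352 entered with a fall of 1.505 and CG12467 missed with 1.489. CG2765 had the largest later rise among members, 0.417, and CG18769 missed with 0.507. Of the 127, 122 matched a RefSeq gene of the Release 6 assembly by symbol, and 73 are named by a CG number in the table. *Pdk* and *ced-6* were the pair of members that are neighbours on the chromosome.

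In *brat* embryos the 127 mRNAs declined less at the time when they were lost from *w1118* embryos, and their median stayed at the level then reached. The median change from 1.5-3 h to 3-4.5 h was -0.88 in *brat* embryos, a 1.84-fold reduction, against -1.95 in *w1118* embryos, a 3.88-fold reduction. The reduction was smaller in *brat* embryos for 126 of the 127 members, CG32243 being the exception. The median *brat* change was 45.3% of the *w1118* change of the same gene, with quartiles of 34.4% and 55.2%. The rule asked for a fall of at least 1.5 in these *w1118* samples, so this count and ratio lean towards a smaller *brat* fall. Against *w1118* replicates kept out of the choice, the *brat* reduction was smaller in 95 of 102, 106 of 107 and 120 of 132 genes. Only 8 members fell by 1.5 or more in *brat* embryos, 73 fell by less than 1 and 16 by less than 0.5. From 3-4.5 h to 4.5-6 h the median change was 0.10 in *brat* embryos, where 80 members were higher at the later time, against -0.12 in *w1118* embryos, where 47 were.

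**Figure D1:**
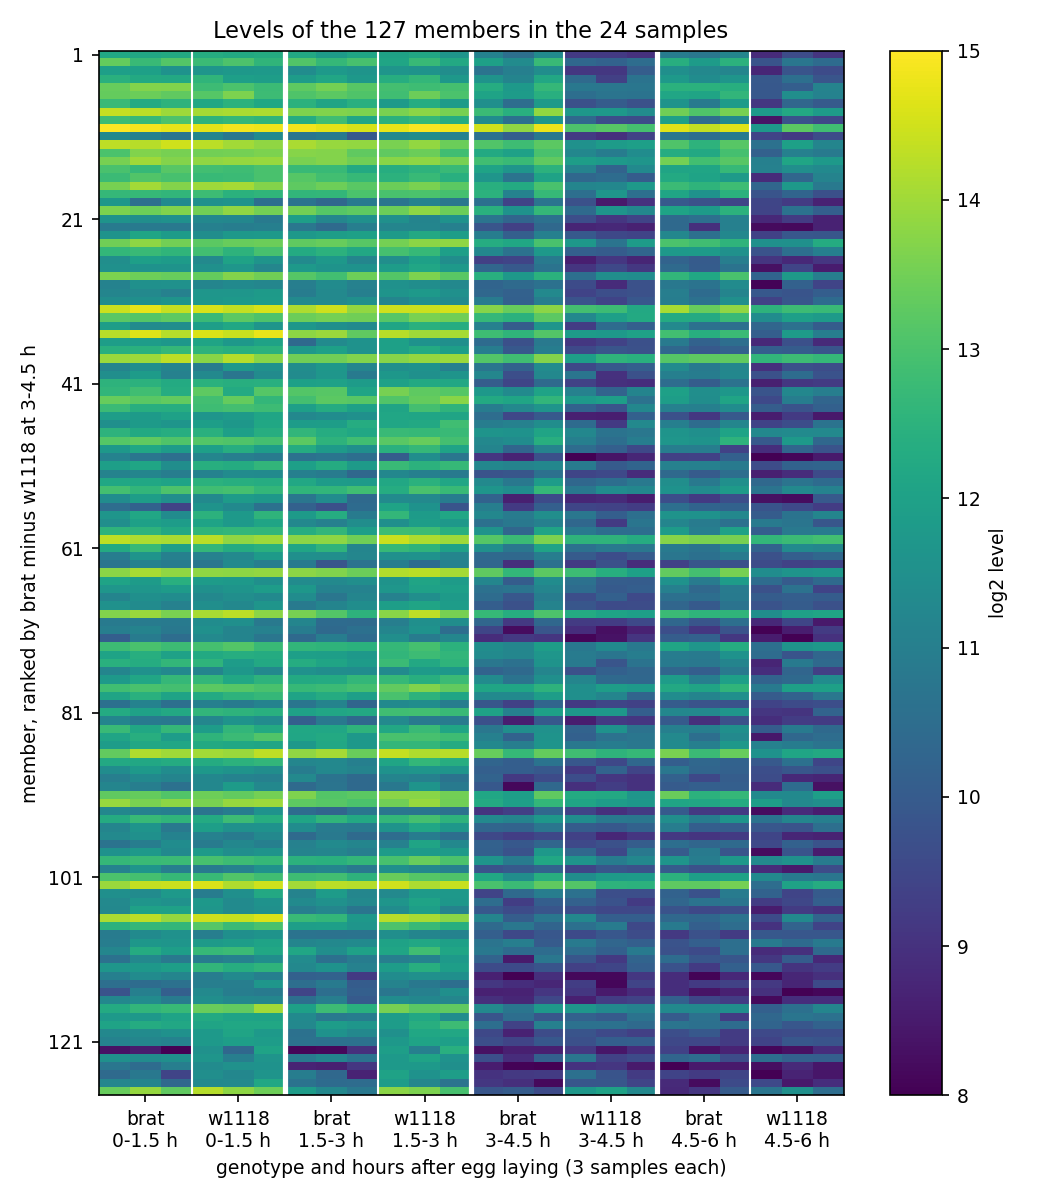
Log2 level of each of the 127 members (rows, ranked by the *brat* minus *w1118* difference at 3-4.5 h) in each of the 24 samples (columns, 3 per group, *brat* left of *w1118* at each time). Most rows turn darker (lower) at 3-4.5 h in both genotypes, and 113 of the 127 had the higher mean in *brat* embryos at that time.

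The levels of single samples show how far this held. At 3-4.5 h the median of the 127 members was 10.90, 10.40 and 11.23 in the *brat* samples, against 10.34, 10.02 and 10.13 in the *w1118* samples. All 3 mutant samples lay above all 3 controls, with *brat* replicate 2, the Cy5 sample of its group, close to the highest control. At 4.5-6 h the medians were 10.98, 10.62 and 11.15 in *brat* samples, against 9.79, 10.18 and 10.12 in *w1118* samples, and the gap was wider. Before the drop the order was the other way round. At 1.5-3 h the medians were 11.77, 11.83 and 11.57 in *brat* samples, all below the 12.07, 12.24 and 12.07 of *w1118* samples. The rule used these same *w1118* samples, so part of these gaps can come from the choice of members. Against *w1118* replicates 1, 2 and 3 kept out of the choice, the median *brat* minus *w1118* difference at 1.5-3 h was -0.32, -0.50 and -0.23.

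Per gene, the median *brat* minus *w1118* difference was -0.10 at 0-1.5 h, -0.41 at 1.5-3 h, 0.66 at 3-4.5 h and 0.92 at 4.5-6 h. The difference was above 0 in 47, 15, 113 and 117 of the 127 members at these times. The value at 3-4.5 h ranged from 0.26 for *brat* replicate 2 to 1.13 for *brat* replicate 3, and that at 4.5-6 h from 0.65 to 1.05. A level in whole embryos does not separate fewer cells holding an mRNA from less mRNA per cell.

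**Figure D2:**
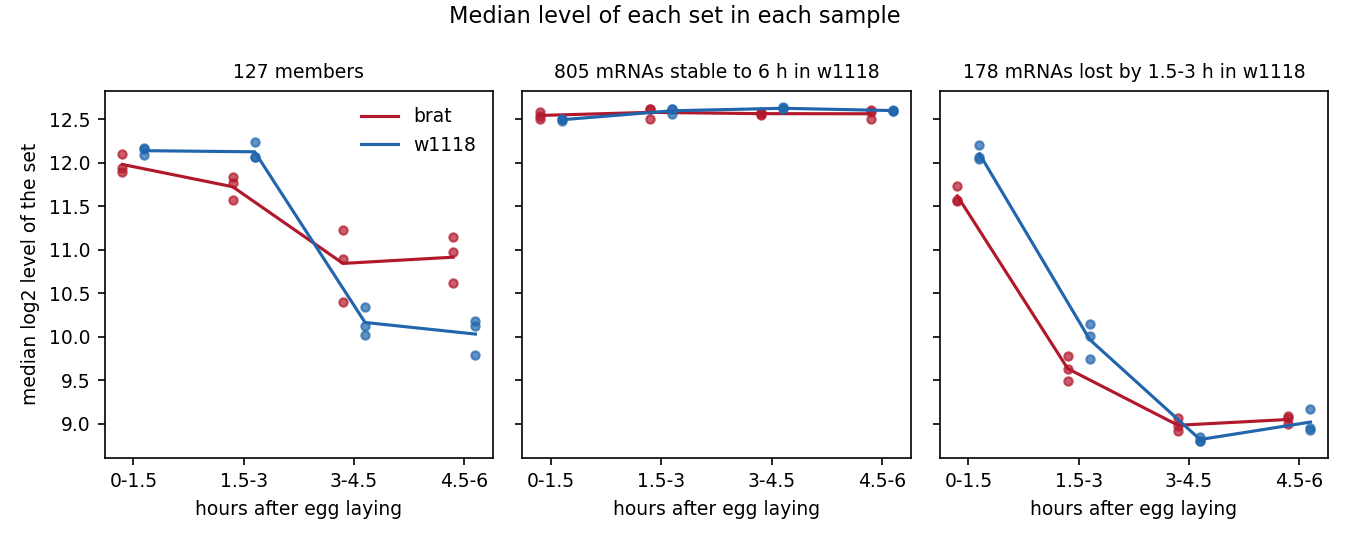
Median log2 level of each set in each sample (points) and the mean of the 3 sample medians (lines), by hours after egg laying, *brat* left of *w1118*. The members sit between 10.40 and 11.23 in *brat* samples and between 10.02 and 10.34 in *w1118* samples at 3-4.5 h, while the set medians of the stable mRNAs at that time were 12.57 in *brat* and 12.61 in *w1118* embryos.

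In other maternal mRNAs the medians of the genotypes were closer at the late times. Among 805 mRNAs that started at 11 or more and changed by less than 0.5 at every step in *w1118* embryos, the median difference was 0.01, -0.03, -0.05 and -0.06 at the 4 times. Among 178 mRNAs already down by 1.5 or more at 1.5-3 h, it was -0.44, -0.29, 0.09 and -0.03. Their median level at 3-4.5 h was 8.93 in *brat* and 8.85 in *w1118* embryos. That is close to the lowest signals of the array, where a gap between genotypes could hardly show. Of these early-lost mRNAs 170 also fell in *brat* embryos by 1.5-3 h (limma, FDR under 5%), with a median change of -1.95 in *brat* embryos and -2.04 in *w1118* embryos. Over all 3134 genes that started at 11 or more, the median difference at 3-4.5 h was -0.03.

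The *brat* samples took no part in the choice of members, so changes within them can be tested. From 1.5-3 h to 3-4.5 h, 65 of the 127 mRNAs fell in *brat* embryos and none rose (limma on the 12 *brat* samples, Benjamini-Hochberg FDR under 5% over 5872 expressed genes), where 7.39% of all tested genes fell and 4.29% rose. That is 51.2% of the members. At an unadjusted p under 0.05, 101 members fell. The number depended on single replicates: it was 2 without *brat* replicate 1, 4 without *brat* replicate 2 and 78 without *brat* replicate 3, out of 32, 68 and 451 calls among all genes. At the step before, 12 members fell and none rose, where 19.5% and 12.1% of all genes did, and 6 and 5 members fell without *brat* replicates 1 and 3. Of the 12, 11 fell again at the next step. From 3-4.5 h to 4.5-6 h none of the 127 rose or fell in *brat* embryos, with 4 and 1 at an unadjusted p under 0.05 and none by SAM, where 0.17% and 0.238% of all genes rose and fell.

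Read in the *brat* samples instead, the same rule found 8 genes rather than 127. They were LpR2, CG30467 and CG5362, which are members, and CG17322, CG5608, CG9883, *tub* and *tun*, which are not. With a required fall of 1 the rule found 64 genes in *brat* and 262 in *w1118* embryos, 35 of them shared, and with a fall of 2 it found none in *brat* and 58 in *w1118* embryos. This comparison was chosen after the values were seen.

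**Figure D3:**
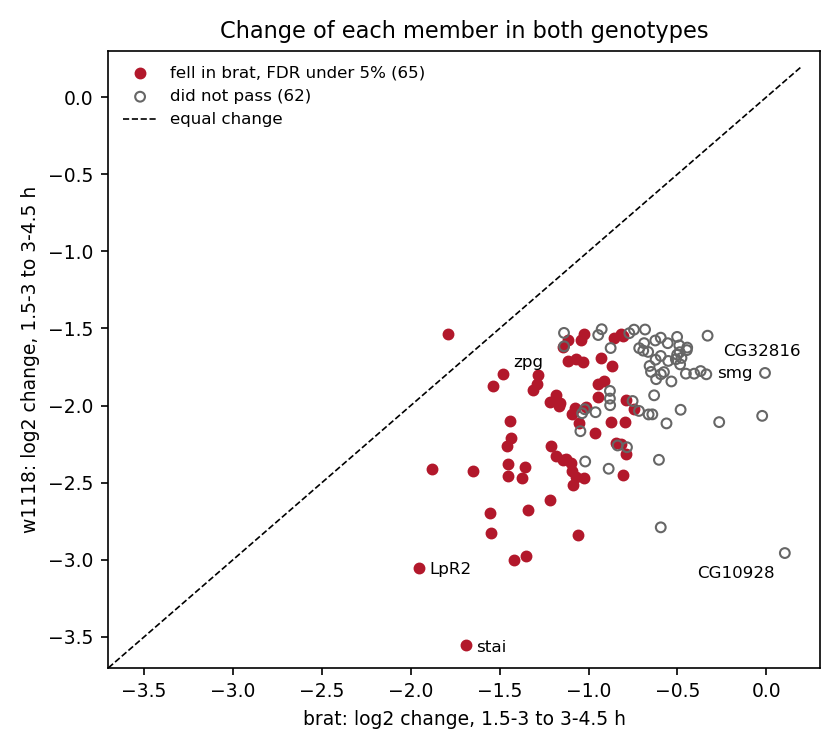
Log2 change of each of the 127 members from 1.5-3 h to 3-4.5 h in *brat* embryos (horizontal) and in *w1118* embryos (vertical), with filled points for the 65 that fell in *brat* embryos at an FDR under 5%. The dashed line marks an equal change, and 126 points lie below it, where the *brat* fall was the smaller. The rule required a *w1118* fall of at least 1.5 in the same samples.

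A direct comparison of genotypes shares its *w1118* samples with the rule, so the counts over the 127 members and the genotype differences of single members are a description. Differences of single members are therefore given with their standard error and no p, and "called" says only that the fit passed an FDR of 5%. At 3-4.5 h 11 members were higher and 1 lower in *brat* embryos (limma on the 6 samples, FDR under 5%), where 2.15% and 1.46% of all genes were, and at 52 members the 3 *brat* values all lay above the 3 *w1118* values, as at 13.5% of all genes. At 4.5-6 h 54 were higher and 1 lower, where 6.06% and 5.38% of all genes were, and all 11 of the earlier calls were among the 54. At 1.5-3 h none was higher and 15 were lower, where 4.02% and 3.49% of all genes were. At 0-1.5 h 1 was higher and 6 were lower, where 4.75% and 3.81% were. The calls at 3-4.5 h depended on each sample: no member was called higher when *brat* replicate 1 or 3 or any *w1118* replicate was omitted, and 28 members were called higher without *brat* replicate 2. Without *brat* replicate 2, 3.34% of all genes were called higher. With dye as a covariate 2 members were called higher at 3-4.5 h and 7 lower at 1.5-3 h, where 0.528% and 1.55% of all genes were. At 4.5-6 h that fit called 37 members higher, where 4.31% of all genes were. At 4.5-6 h 23 and 22 were called higher without *brat* replicates 1 and 3, and 30 without *w1118* replicate 1. Of all genes 3.59%, 3.12% and 3.95% were called higher in these 3 fits.

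To keep the rule and the comparison apart, the members were chosen anew from 2 of the 3 *w1118* replicates and the *brat* samples were set against the replicate left out. This gave 102, 107 and 132 genes without replicates 1, 2 and 3. Their median change from 1.5-3 h to 3-4.5 h was -0.88, -0.88 and -0.85 in *brat* embryos, against -1.80, -2.09 and -1.80 in the *w1118* replicate that had not been used. The median *brat* minus *w1118* difference at 3-4.5 h was 0.50, 0.64 and 0.60, and 79 of 102, 91 of 107 and 105 of 132 genes were higher in *brat* embryos. At 4.5-6 h it was 1.21, 0.76 and 0.73. At 3-4.5 h 12, 17 and 9 of these genes were called higher, where 2.08%, 2.93% and 2.93% of all genes were. At 4.5-6 h 39, 14 and 30 were called higher, where 3.24%, 1.72% and 3.25% were. The difference of the change itself passed the test (limma interaction) in 0 of 102, 8 of 107 and 2 of 132 genes, where 0.0681%, 0.272% and 0.187% of all genes did. With a single *w1118* sample in each of these contrasts, that sample is taken to vary like the other groups.

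The members with the plainest roles in the early embryo regulate maternal mRNA and the body axes. *smg* encodes Smaug, an RNA-binding repressor that recruits the deadenylase to maternal messages. Its level at 3-4.5 h was 14.49, 13.83 and 14.80 in *brat* embryos, against 13.05, 13.17 and 12.94 in *w1118* embryos. At 4.5-6 h it was 14.66, 14.36 and 14.66 in *brat* embryos, against 11.75, 13.23 and 12.85 in *w1118* embryos. The groups did not overlap at either time, and the differences were 1.32 ± 0.27 and 1.95 ± 0.35 (SE), 2.49-fold and 3.87-fold. Within *brat* embryos *smg* changed by -0.34 ± 0.23 at the step of the drop, which did not pass the test (limma adjusted p = 0.366).

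CG15737 is *wisp*, the cytoplasmic poly(A) polymerase of the egg. It was at 12.45, 11.58 and 12.67 in *brat* embryos at 3-4.5 h, against 10.41, 11.64 and 11.24 in *w1118* embryos, and replicate 2 of the mutant lay within the control range. At 4.5-6 h its values of 12.06, 11.82 and 12.49 in *brat* embryos all lay above the 9.44, 10.65 and 10.12 of *w1118* embryos (difference 2.05 ± 0.31). *BicD*, a dynein adaptor that carries localized mRNAs, was 1.16 ± 0.19 higher in *brat* embryos at 4.5-6 h. Of the 32 expressed genes listed as maternal regulators of mRNA translation and decay, 3 were called higher and none lower in *brat* embryos at 3-4.5 h. Of all genes 2.15% and 1.46% were. At 4.5-6 h 4 were higher and none lower, where 6.06% and 5.38% of all genes were. The median differences of the list at these times were 0.12 and 0.04. The members *smg*, *wisp* and *BicD* made up 3 of the last 4, the other being *swa*.

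*bcd*, whose mRNA supplies the anterior morphogen Bicoid, was at 11.49, 10.51 and 11.83 in *brat* embryos at 3-4.5 h, against 9.71, 10.04 and 9.73 in *w1118* embryos. All mutant values were the higher, with a difference of 1.45 ± 0.33. At 4.5-6 h it was at 11.61, 10.85 and 11.84 in *brat* embryos, against 9.15, 10.31 and 9.98 in *w1118* embryos, a difference of 1.62 ± 0.35, and the groups again did not overlap. *tor*, the receptor tyrosine kinase that patterns the embryo's termini, was 0.55 ± 0.40 higher in *brat* embryos at 3-4.5 h and 0.96 ± 0.33 higher at 4.5-6 h. It fell by 1.46 ± 0.34 in *brat* embryos at the step of the drop (adjusted p = 0.0184) to 9.47, 8.25 and 9.84, against 8.91, 8.30 and 8.68 in *w1118* embryos at that time, and the genotypes overlapped.

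*twe* encodes the Cdc25 phosphatase Twine, whose removal accompanies the end of the rapid nuclear divisions. It was the member called higher in *brat* embryos at 0-1.5 h, at 13.36, 13.71 and 13.68 in *brat* embryos against 12.81, 13.01 and 12.78 in *w1118* embryos (a difference of 0.72). At 3-4.5 h it was at 12.33, 11.79 and 12.67 in *brat* embryos, against 10.81, 10.79 and 10.74 in *w1118* embryos. At 4.5-6 h it was at 12.48, 12.46 and 12.40 in *brat* embryos, against 9.93, 10.10 and 11.12 in *w1118* embryos. These later differences were 1.49 ± 0.25 and 2.06 ± 0.30, or 2.80-fold and 4.18-fold. *twe* did fall in *brat* embryos, by 1.06 ± 0.22 (adjusted p = 0.0111). Among 21 expressed cyclins, Cdks and Cdc25 phosphatases it was the gene called higher at both late times, and none was called lower then. Of all genes 2.15% and 6.06% were called higher at these times.

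**Figure D4:**
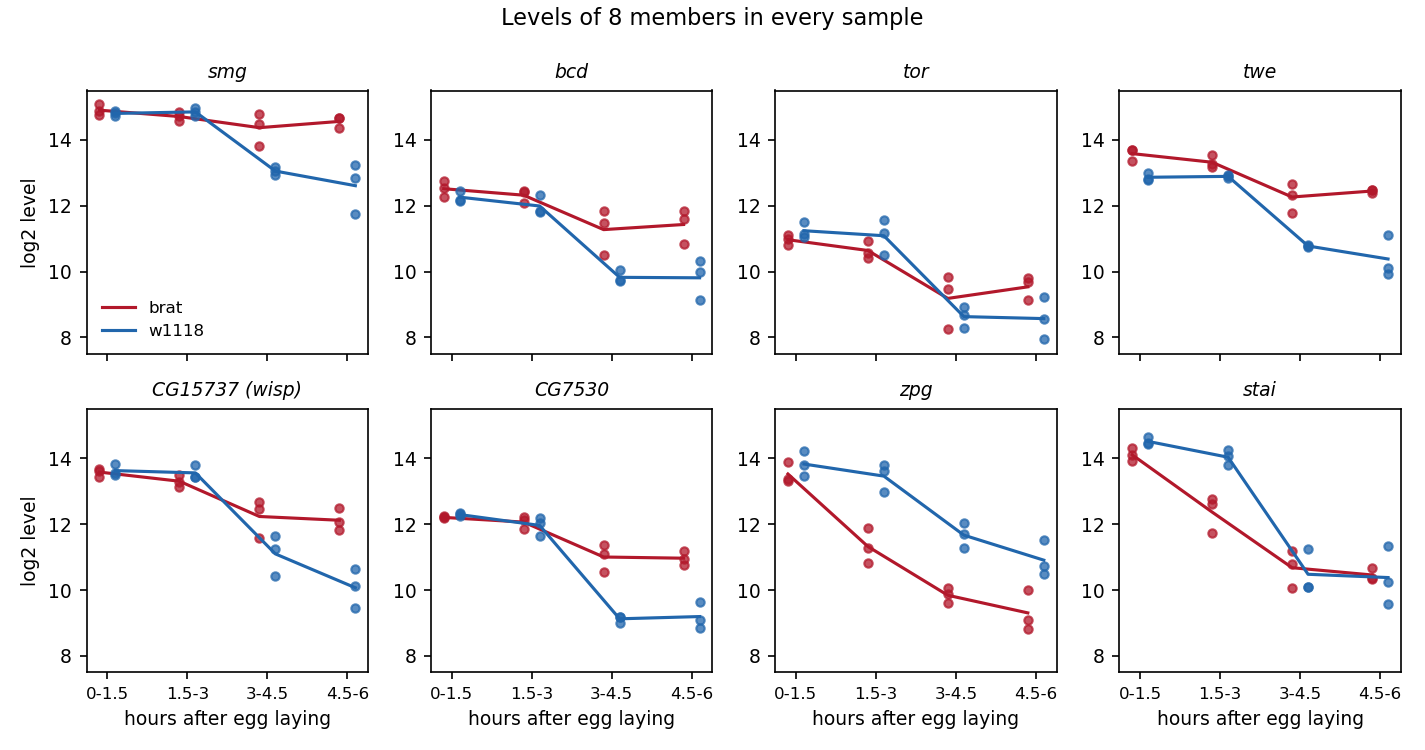
Log2 level of 8 members in every sample (points, 3 per group) with group means (lines), by hours after egg laying, *brat* left of *w1118*. All *brat* points of *smg*, *bcd*, *twe* and CG7530 lie above the *w1118* points at the last 2 times, those of *tor* and CG15737 overlap at 3-4.5 h, and *zpg* and *stai* are lower in *brat* embryos at 1.5-3 h.

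The largest positive differences among called members at 3-4.5 h were those of CG7530, CG14578, CG10425, *twe*, CG11055 and *smg*. CG7530 was at 11.11, 10.54 and 11.36 in *brat* embryos, against 9.19, 9.19 and 8.99 in *w1118* embryos (1.88 ± 0.24, 3.67-fold). CG14578 was at 11.99, 11.37 and 12.74 in *brat* embryos, against 10.34, 10.21 and 10.50 in *w1118* embryos (1.68 ± 0.33). CG10425 (*Kdsr*), an enzyme of sphingolipid synthesis, was 1.60 ± 0.32 higher in *brat* embryos, and CG11055, the hormone-sensitive lipase gene *Hsl*, 1.47 ± 0.21 higher. For all of these the 3 mutant values lay above the 3 controls, and the differences at 4.5-6 h were 1.77, 1.92, 1.92 and 1.45 for CG7530, CG14578, CG10425 and CG11055.

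Some members scarcely moved in *brat* embryos at the step when they were lost from *w1118* embryos. For Thd1, *Gyc76C* and *dco* the *brat* mean was already lower by then. It was 11.04, 12.30 and 14.08 at 0-1.5 h and 10.50, 11.91 and 13.55 at 1.5-3 h, falls that were not called. Thd1, a thymine DNA glycosylase gene, was at 10.73, 10.86 and 9.92 in *brat* embryos at 1.5-3 h and at 10.58, 10.08 and 10.78 at 3-4.5 h. In *w1118* embryos it was at 11.27, 11.43 and 11.09 and then at 9.23, 8.98 and 9.37. *Gyc76C*, a receptor guanylyl cyclase gene, changed by -0.27 ± 0.24 in *brat* embryos (adjusted p = 0.503), while its *w1118* mean was 12.25 at 1.5-3 h and 10.14 at 3-4.5 h. *dco*, which encodes the casein kinase Doubletime, changed by -0.33 ± 0.21 in *brat* embryos (adjusted p = 0.327). CG32816 changed by -0.01 ± 0.39, with *brat* values spread from 9.20 to 10.98 at 3-4.5 h. Its mean was already the lower in *brat* embryos at 0-1.5 h, 10.03 against 11.17 in *w1118* embryos. At 1.5-3 h it was 10.11 in *brat* against 11.15 in *w1118* embryos. A change that did not pass is not shown to be 0 with 3 samples per group.

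CG10928 had the smallest fall of all, with a change of 0.10 ± 0.31, and was already low in *brat* embryos. It was at 8.34, 8.54 and 7.71 in *brat* embryos at 0-1.5 h, against 11.54, 10.35 and 12.07 in *w1118* embryos, and at 8.31, 8.62 and 8.62 in *brat* embryos against 9.16, 8.42 and 8.93 in *w1118* embryos at 3-4.5 h. Its level in the mutant was near the lowest signals of the array throughout, so a fall could hardly be measured. In all, 17 members were below 11 in *brat* embryos at 0-1.5 h.

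The members with the largest falls in *brat* embryos were LpR2, CG30467, CG32243, *stai*, CG5362 and CG5789. LpR2, a lipophorin receptor gene, was at 11.97, 12.02 and 11.85 in *brat* embryos at 1.5-3 h and at 10.08, 9.47 and 10.43 at 3-4.5 h, a change of -1.96 ± 0.24 (adjusted p = 0.000478). Its *w1118* values at 3-4.5 h were 9.39, 8.98 and 8.92, still below every mutant value, and its change in *w1118* embryos was -3.05. CG5362, the cytosolic malate dehydrogenase gene *Mdh1*, fell by 1.65 ± 0.23 (adjusted p = 0.00119) to 9.59, 9.57 and 9.81 in *brat* embryos, against 9.33, 9.46 and 10.11 in *w1118* embryos, and the genotypes overlapped.

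*stai* and *zpg* were among the 15 members called lower in *brat* embryos at 1.5-3 h, where 3.49% of all genes were. *stai* encodes stathmin, which destabilizes microtubules, and was at 12.75, 12.62 and 11.73 in *brat* embryos at 1.5-3 h, against 14.24, 14.07 and 13.79 in *w1118* embryos (-1.67 ± 0.29). By 3-4.5 h it was at 11.19, 10.06 and 10.78 in *brat* embryos, against 11.26, 10.08 and 10.10 in *w1118* embryos, and the genotypes overlapped. *zpg* encodes the germ-line gap junction protein Zero population growth. It was at 11.87, 11.28 and 10.81 in *brat* embryos at 1.5-3 h, against 13.79, 13.62 and 12.97 in *w1118* embryos, and at 9.87, 10.05 and 9.60 in *brat* embryos against 11.69, 12.04 and 11.26 in *w1118* embryos at 3-4.5 h. It was the member called lower in *brat* embryos at both late times (-1.83 ± 0.25 at 3-4.5 h and -1.60 ± 0.36 at 4.5-6 h).

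The 12 members that fell in *brat* embryos between 0-1.5 h and 1.5-3 h were *zpg*, CG6180, *stai*, CG6543, CG4389, CG8632, CG14899, CG8507, *Mekk1*, CG17018, *PpD3* and CG32473. CG6180 changed by -1.94 (adjusted p = 6.74e-05) and was at 8.70, 8.62 and 9.10 in *brat* embryos at 1.5-3 h, against 11.78, 11.75 and 11.49 in *w1118* embryos. CG6543 (*Echs1*) and CG4389 (*Mtpalpha*), enzymes of fatty-acid oxidation, changed by -1.35 and -1.07. A drop of 0.5 or more by 1.5-3 h in *brat* embryos was seen in 28 members. Scaling each sample to the mean of 80 cytosolic ribosomal protein genes gave 30 called falls in place of 12. Of all genes 27.5% fell with this scaling, against 19.5% without it. The scaling subtracted the deviation of that mean, which in *brat* samples was -0.23 at 0-1.5 h and 0.03 at 1.5-3 h.

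Cellularization and gastrulation markers also differed between the genotypes. The mean of 10 cellularization genes such as *nullo* and *bnk* was 10.98 to 11.64 in *brat* samples at 1.5-3 h, against 12.17 to 12.30 in *w1118* samples, and the mean of 17 gastrula patterning genes at 3-4.5 h was 10.55 to 11.14 in *brat* samples, against 11.19 to 11.36 in *w1118* samples. The mean of 15 late differentiation genes was the higher in *brat* samples at 0-1.5 h, at 8.95 to 9.09 against 8.66 to 8.68 in *w1118* samples, and at 1.5-3 h, at 9.43 to 9.91 against 8.81 to 9.23 in *w1118* samples. At 3-4.5 h it overlapped between the genotypes, and at 4.5-6 h it was 10.28 to 10.69 in *brat* samples, against 10.75 to 10.96 in *w1118* samples. At 0-1.5 h the cellularization mean was the higher in *brat* samples, at 9.37 to 10.11, against 9.12 to 9.22 in *w1118* samples. It was the lower in *brat* samples at 3-4.5 h, at 9.08 to 9.09 against 9.29 to 9.59, and overlapped at 4.5-6 h. The gastrula mean was the higher in *brat* samples at 0-1.5 h, at 9.20 to 9.56 against 8.86 to 9.01. It overlapped at 1.5-3 h and was the lower in *brat* samples at 4.5-6 h, at 10.27 to 10.48 against 10.64 to 10.84. The part of embryo stage in the levels of the 127 mRNAs was not tested. Means of 16 chorion and vitelline membrane genes lay between 7.97 and 8.36 in every sample.

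Members with known roles were sorted into 10 groups after their values had been seen, which placed 59 of the 127, so the groups carry no test and their counts are read against the 42.5% of all 127 members, and 6.06% of all genes, called higher at 4.5-6 h. The 5 regulators of maternal mRNA and patterning had a median *brat* minus *w1118* difference of 1.14 at 3-4.5 h and 1.62 at 4.5-6 h. Over all 127 members the medians at these times were 0.66 and 0.92, with 113 and 117 members above 0. The 10 cell cycle and signalling enzymes had medians of 0.52 and 0.79, with all 10 above 0 at both times. They include *Abl*, a tyrosine kinase gene that fell by 1.07 ± 0.20 in *brat* embryos (adjusted p = 0.00839), and *Mekk1* and *lic*, kinase genes of the p38 pathway.

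Among the 5 germ-line genes *AGO3* and *mael*, of the piRNA pathway, were 1.03 and 0.98 higher in *brat* embryos at 4.5-6 h, opposite in sign to *zpg*. CG17018 (*Marf1*) was 0.96 ± 0.21 higher at 3-4.5 h and 1.70 ± 0.39 higher at 4.5-6 h. The transcription factor genes *ftz-f1*, encoding a nuclear receptor, and *Aef1* were 1.72 and 1.42 higher at 4.5-6 h.

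The 8 lipid genes had medians of 0.77 and 1.28, and 6 of them were called higher at 4.5-6 h, among them CPTI, the carnitine palmitoyltransferase gene *whd* (a difference of 1.15), and the lipase gene *dob* (a difference of 1.94). CG4389 and CG6543, lower at 1.5-3 h, were not among them. Of the 6 cytoskeletal genes *Chd64* had the largest difference at 4.5-6 h, 2.12 ± 0.26, and *Fhos* and *RhoBTB* were 0.92 and 1.02 higher. The 8 protein turnover genes had medians of 0.87 and 0.88. *muskelin*, a subunit of a ubiquitin ligase, was 1.74 ± 0.34 higher at 4.5-6 h, and the ubiquitin-conjugating enzyme gene UbcD4 was 1.54 higher. Pros29, a proteasome core subunit gene, was 0.92 lower in *brat* embryos at 1.5-3 h.

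**Figure D5:**
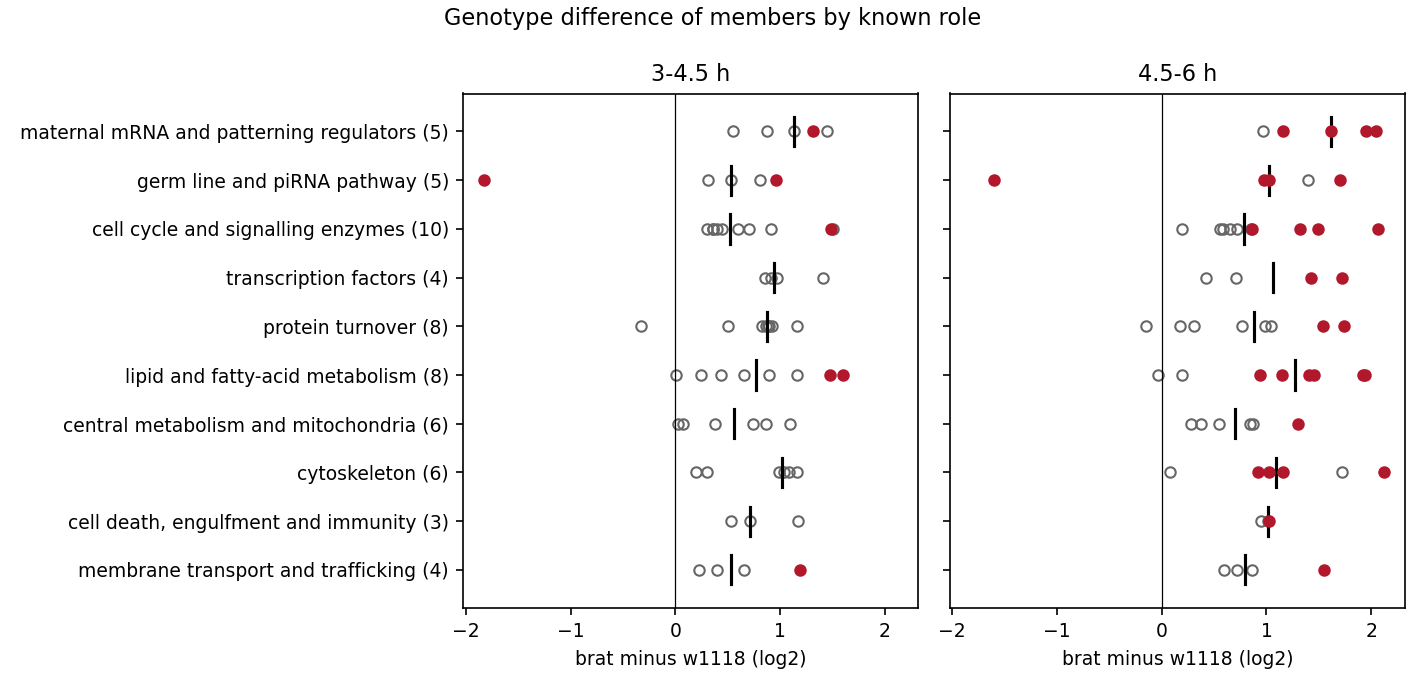
Log2 *brat* minus *w1118* difference of the 59 members with a known role (points; red where limma's FDR was under 5%), by role group with the number of members in brackets, at 3-4.5 h (left) and 4.5-6 h (right); black bars are group medians. All 10 medians lie above 0, and *zpg* is the red point left of 0.

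The other genes of these pathways are given by count. Of 17 expressed genes of maternal patterning and genome activation, 7 fell in *brat* embryos at the step of the drop, *ea*, *hb*, *nos*, *osk*, *spz*, *tor* and *tub*, where 7.39% of all genes did. At 3-4.5 h *cad* and *osk* were called higher in *brat* embryos, and at 4.5-6 h *bcd* and *cad*, where 2.15% and 6.06% of all genes were. Of the listed genes of the CCR4-NOT complex, decapping and the exosome none is a member. Calls were counted for 9 of them, fewer than the 14 of the list that started at 11 or more, so this count is partial. None of the 9 was called higher in *brat* than in *w1118* embryos at any time. *Upf1* was called lower at 4.5-6 h, and *twin* fell in *brat* embryos by 1.5-3 h, where 5.38% and 19.5% of all genes did. Among the 17 ubiquitin ligases and regulators counted *muskelin* alone fell in *brat* embryos at the step of the drop, a share near the 7.39% of all genes. This count too is partial, as 23 of that list started at 11 or more.

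The study listed mRNAs that associated with BRAT or with Pumilio (PUM), an RNA-binding partner, in immunoprecipitates from wild-type embryos of 0-3 h, which are other samples. Of the 127 members 34 (26.8%) are on the BRAT list, against 17.3% of the 3134 genes that started at 11 or more. The PUM list holds 14 of the members, and 324 of the 3134 (10.3%). The BRAT share was 13.7% among the stable mRNAs and 34.3% among those lost early. The 29 members on the BRAT list alone had a median *brat* minus *w1118* difference of 0.87 at 3-4.5 h, and 27 of them were above 0. The 84 members on neither list had a median of 0.61, and 73 were above 0. Among the 5 members on both lists CG10928, CG2765, CG6175, *EDTP* and *Stlk*, only CG6175 was called higher at 4.5-6 h (1.42 ± 0.29).

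The array measured 93 members with a single transcript and 34 with several. In 28 of the 34 every transcript was higher in *brat* embryos at 3-4.5 h, and in CG32473 none was. Every transcript fell by 1.5 or more in *w1118* embryos in 21, and in the other 13 at least 1 transcript fell less, so those genes qualified through the mean over transcripts.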

How the data were processed

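Total RNA of 24 whole-embryo samples was copied to double-stranded cDNA, labelled with Cy3 or Cy5 and hybridised to NimbleGen arrays, 1 sample per dye. The deposited values are log2 expression levels that the authors obtained by RMA with quantile normalization of all samples together, 1 row per transcript. Of 17775 rows 6 held no value. The remaining 17769 were averaged per symbol to 14042 genes. Precision is limited by the 3 replicates of a group. Expressed genes (5872) were those above the mean of all genes in at least 1 group by a one-sided limma test. Changes within *brat* embryos were tested on the 12 *brat* samples and genotypes at each time on 6 samples, with limma 3.58.1 in R 4.3.3, Benjamini-Hochberg over all expressed genes, FDR 5%. The test was checked on simulated data. p-values measure the spread between the 3 labelled biological replicates.

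The members and gene lists were chosen with earlier results of these data known. Genes were named by the smallest and largest falls in *brat* embryos, the largest called differences at 3-4.5 h, the highest *w1118* levels, membership of the lists and association with both proteins. The genes discussed by role beyond these were chosen after their values were seen. Alternatives were a single fit of all samples, no filter, single transcripts, a replicate block, SAM, limma-trend, a 1.5-fold minimum, dye as a covariate, ribosomal protein scaling, omitted replicates and other thresholds of the rule. Association lists came from the study's supplementary tables, matched by symbol. No sequences were used here.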

Additional observations from a re-analysis of the deposited data

Results flagged for a closer look

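The difference in the change from 1.5-3 h to 3-4.5 h between *brat* embryos and the *w1118* replicate that had not chosen the members was itself tested (limma interaction, FDR under 5%). With *w1118* replicate 2 kept apart, 8 of 107 genes had a less negative change in *brat* embryos, where 0.272% of all genes did, and with replicate 3 kept apart 2 of 132 did, where 0.187% of all genes did. With replicate 1 kept apart 0 of 102 passed, where 0.0681% of all genes did. The median difference of the change was 0.89, 1.24 and 0.87 for replicates 1, 2 and 3, and it was above 0 in 95 of 102, 106 of 107 and 120 of 132 genes. This comparison was added after seeing the data.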

How the results depend on the processing

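The median *brat* minus *w1118* difference at 3-4.5 h kept its sign in every alternative that gave a value, and taking transcripts singly gave none. For the 55 results on named genes, 525 of 686 alternatives kept the call, 161 lost it (124 of them with a replicate omitted) and 0 reversed; the cause was not tested. Counts of called members moved more. With a replicate omitted, the 65 falls at the step of the drop ranged from 2 to 78 and the 12 earlier falls from 5 to 10. Members higher and lower in *brat* embryos ranged from 0 to 1 and 2 to 7 at 0-1.5 h, 4 to 9 (lower) at 1.5-3 h, 0 to 28 and 0 to 1 at 3-4.5 h, and 22 to 48 and 0 to 1 at 4.5-6 h, and the rule found 102 to 132 genes.

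SAM gave 39 earlier falls and 27 members higher at 3-4.5 h, where 26.6% and 5.55% of all genes were called. Ribosomal protein scaling gave 30 earlier falls, 0 higher at 0-1.5 h and 8 lower at 1.5-3 h. Of all genes 27.5%, 4.27% and 3.01% were called with this scaling. A single fit of all 24 samples gave 0 higher at 0-1.5 h, and 47 higher and 2 lower at 3-4.5 h. Without the filter 0 were higher and 2 lower at 0-1.5 h, 7 lower at 1.5-3 h and 7 higher at 3-4.5 h. With dye as a covariate these were 0, 3, 7 and 2, where 3.27%, 1.89%, 1.55% and 0.528% of all genes were called. limma-trend gave 22 higher at 3-4.5 h. Over all genes at 3-4.5 h 126 were higher and 86 lower in *brat* embryos, 458 and 396 in the single fit of all samples, and 31 and 28 with dye as a covariate.

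Against the *w1118* replicate not used for the choice (1, 2 and 3), 0, 0 and 0 were higher and 0, 1 and 1 lower at 0-1.5 h, and 3, 5 and 5 lower at 1.5-3 h. At 3-4.5 h 12, 17 and 9 were higher and 1, 1 and 0 lower, and at 4.5-6 h 39, 14 and 30 were higher, with 0 lower for replicates 1 and 3. A level of 12 gave 67 members, a fall of 1 gave 262, a fall of 2 gave 58, and the rule read in *brat* samples gave 8.

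The deviations of same-numbered replicates of the genotypes correlated at r from -0.088 to 0.176. Such replicates always carried opposite dyes, so these correlations cannot settle whether the numbers pair samples. Same-numbered *brat* samples of different times correlated at r from -0.013 to 0.22. With a replicate block the falls were 71 and 14, 8 members were lower at 1.5-3 h, 7 were higher at 3-4.5 h and 50 at 4.5-6 h.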
